A study of Homo sapiens with 12 samples.

Results

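The genes described here are 30 members of the SREBP pathway, which makes, senses and exports sterols and makes fatty acids. They were chosen by name, and all 30 were found once in each of the 2 deposited gene tables, which list the same 25914 genes. In this series, cells of 2 human lines were treated with 10 µM Nutlin-3a or with the solvent DMSO for 24 h. The lines were HCT116, from a colon cancer, and RPE-1 hTERT, retinal epithelium immortalized with telomerase, both labelled wild-type. Nutlin-3a blocks the binding of MDM2 to p53 and so lets p53 accumulate. RNA was sequenced from 3 samples of each line and treatment, 12 in all.

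Each table gives 1 level per gene, the base mean, which is the authors' average over libraries of the reads on a gene after scaling for library size. This average was identical in both tables for all 25914 genes. It therefore separates neither Nutlin-3a from DMSO nor HCT116 from RPE-1, and it carries no spread between samples. The remaining numeric columns hold the authors' own comparison of the treatments and were not used, so nothing below describes a response to Nutlin-3a. Reads per library are unknown, and no test was possible.

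The base mean was checked against marker genes of each tissue. Neither line is of breast origin, yet all 5 markers of breast epithelium were listed, with base means of 19944 for GREB1, 15906 for GATA3, 13215 for TFF1, 1335 for ESR1 and 480 for PGR. Of the 5 epithelial genes looked up for colon, 4 had a row, where CDH1 stood at 13336 and EPCAM at 2480, whereas VIL1 and LGALS4 stood at 5.68 and 3.69. Whether CDH1 and EPCAM mark colon alone was not tested. For retinal pigment epithelium, 2 of 5 markers had a row, and BEST1 was listed at 67.9 and PMEL at 67.2. CDX1, RPE65, RLBP1 and TYR were looked up and matched no row. Whether HCT116 or RPE-1 cells in culture express these tissue markers was not tested. The paper also sequenced RNA of MCF-7, a breast cancer line, and of U2OS, an osteosarcoma line, under the same treatments. Which libraries entered the base mean is not given in the sources used here and was not tested. The levels below are therefore given as the authors' average and not as levels in HCT116 or RPE-1 cells.

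Cells make cholesterol from acetyl-CoA through mevalonate, isoprenoid phosphates and squalene. SREBF1 and SREBF2 encode membrane-bound transcription factors, the SREBPs. When sterols are scarce, the escort protein SCAP carries them to the Golgi, where proteases release the active part. When sterols are plentiful, INSIG1 and INSIG2 hold SCAP in the endoplasmic reticulum. Active SREBPs bind sterol regulatory elements in promoters, usually beside NF-Y, which recognises CCAAT boxes, and Sp1, which recognises GC boxes. ABCA1 and ABCG1 export sterols and are induced by a different sensor, LXR. In many cells active p53 is known to restrain this pathway, ABCA1 being one of the genes involved.

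Promoters were searched for these elements. No sequence was used to choose the genes, but they were named as members of the SREBP pathway. The choice may therefore not be independent of sites already known in their promoters. RefSeq promoters of GRCh38.p14, from 250 bases before to 50 bases after a gene's start, were matched for 25 of the 30 genes. ACAT2, FDFT1, FASN, ABCG1 and SQLE had no entry. Both strands were read, and positions before the start carry a minus sign. None of the motifs contains the letters of another, and a palindrome was counted once. The sterol element was searched as TCACNCCAC, with N for any base. Only these letters in this window were matched, and other forms of the element were not searched. A match was found at 1 of 25 genes, SREBF2, at position −133, against 1.39% of the 27305 genes with a promoter. A CCAAT box followed on the other strand at position −106. The sites at SREBF2 are shown because this gene encodes a factor that binds the element, with the element in capitals in the first line and the reverse complement of CCAAT in the second.
SREBF2 sterol element, chr22:41832962-41832991, plus strand: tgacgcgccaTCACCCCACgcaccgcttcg
SREBF2 CCAAT box, chr22:41832987-41833016, plus strand: cttcgctcgcccATTGGctgagatgagcct

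CCAAT boxes, the sites of NF-Y, were searched as CCAAT. They were present at 19 of 25 genes (76%), against 39.7% of all genes with a promoter and 43.0% of 12400 genes with a listed base mean of at least 10. Counting each site once gave 48 sites in the 19 genes, 33 of them on the strand opposite to the gene. Their median position was −118.5, with quartiles at −157.5 and −75.5. IDI1, MVK and NSDHL each held 5 sites and MSMO1 held 4. Those of IDI1 were pooled over its 3 promoter entries, whereas MVK and NSDHL have 1 entry each. Matches on opposite strands that overlapped, at −132 and −129 of IDI1 and −113 and −110 of NSDHL, were counted separately. Strand, position and sites per gene were not computed for other genes, so no background stands beside them. The 6 genes with an entry and no CCAAT box were SREBF1, SCAP, INSIG2, PMVK, CYP51A1 and ABCA1. For each further role, the site nearest the start is shown from the gene with the highest base mean among those with a CCAAT box before the start, the box or its reverse complement in capitals.
FDPS, chr1:155308803-155308832, plus strand: tcccgcgggcacATTGGgagttgtagtcta
LSS, chr21:46228907-46228936, minus strand: cgcggcgctctgATTGGttgcgtgggcgtc
SCD, chr10:100347035-100347064, plus strand: aattcccttcggCCAATgacgagccggagt
STARD4, chr5:111512648-111512677, minus strand: ctcccgcgccagCCAATccgaacaagcgca

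E-boxes, searched as CACGTG, were present at 5 of 25 genes (20%), against 8.77% of all genes and 12.1% of the genes listed with a base mean of at least 10. The genes were SCAP, INSIG1, LSS, SC5D and ABCA1. At LSS the match lay after the start, at position 41. SREBPs can bind this palindrome as well as the sterol element. The matches at a regulator and at the exporter ABCA1 are shown, since SREBP-2 is known to act at the ABCA1 promoter through an E-box, and the capitals mark the E-box.
INSIG1, chr7:155297811-155297840, plus strand: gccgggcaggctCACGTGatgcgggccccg
ABCA1, chr9:104928285-104928314, minus strand: gggccccggctcCACGTGctttctgctgag

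GC boxes, searched as GGGCGG, were present at 24 of 25 genes (96%), every one but NSDHL, and at 48.3% of all genes. This background rose to 74.2% among the genes listed with a base mean of at least 10, so much of the gap lay between listed genes and the rest. The LXR repeat of type DR4 and a p53 element without a spacer, searched by exact match, were found at 0 of 25 genes. They were also rare elsewhere, at 0.0256% and 0.0220% of all genes, and the search covered these exact letters in this window only. The bars of motif shares show both backgrounds.

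**Figure D1:**
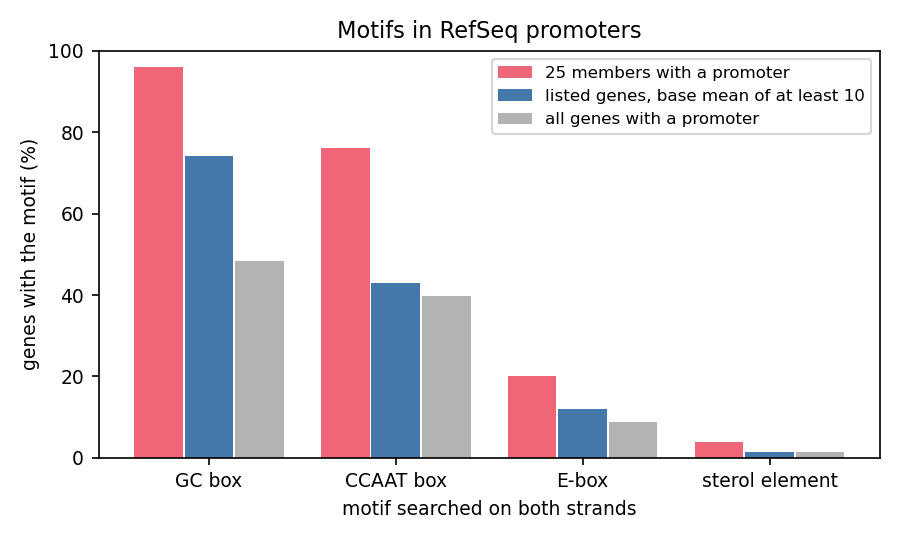
Share of genes whose RefSeq promoter holds each motif, in percent, for the 25 members with a promoter, for 12400 genes listed with a base mean of at least 10 and for all 27305 genes with a promoter. CCAAT boxes were found at 76% of the members and at 39.7% of all genes, and the sterol element, matched only as TCACNCCAC, at 1 member.

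Levels of different genes were compared per kilobase of exons, because a long gene collects more reads. The median of the 30 members was 716 base mean units per kilobase, against 120 for protein-coding genes, and 24 of 30 lay above that median. In reads not divided by length, all 30 lay above the median of all listed genes (150) and 25 above that of the 15758 protein-coding genes (651). The top 10% of protein-coding genes began at a base mean of 3934 and held 13 of the 30. No error can be given for any of these levels.

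**Figure D2:**
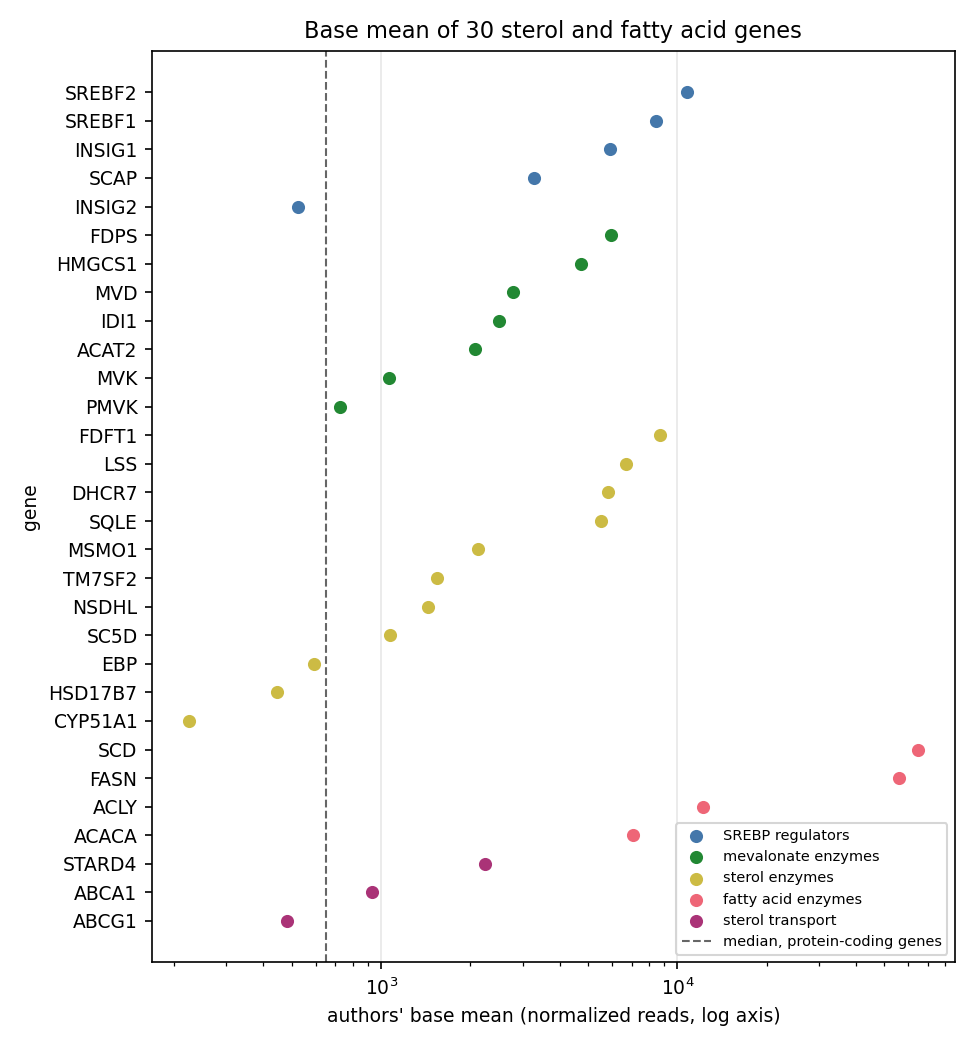
Base mean of each of the 30 genes, as the authors give it, on a log axis, with genes grouped and coloured by role and the median of protein-coding genes as a dashed line. SCD and FASN lie farthest to the right, and 5 genes lie left of the line: EBP, INSIG2, ABCG1, HSD17B7 and CYP51A1.

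Among the regulators, the level per kilobase of exons was highest for INSIG1, a retention protein that is itself an SREBP target, at 1622. SREBF2, whose product acts mainly on cholesterol genes, stood at 1341, and SREBF1, whose product acts mainly on fatty acid genes, at 1028. SCAP stood at 523. INSIG2 stood far below its relative INSIG1, at 133 per kilobase, near the middle of protein-coding genes, of which 52.5% lay at or below it. The base means behind these levels were 5920 for INSIG1, 10797 for SREBF2, 8468 for SREBF1, 3286 for SCAP and 523 for INSIG2.

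The 7 enzymes from acetyl-CoA to farnesyl diphosphate had a median of 714 per kilobase of exons. FDPS, which makes farnesyl diphosphate, was the highest at 1601, from a base mean of 5954. ACAT2, the thiolase that joins 2 acetyl-CoA, stood at 786. HMGCS1, which adds the next acetyl group, stood at 714. The kinases of mevalonate and phosphomevalonate stood at 118 for MVK and 723 for PMVK. Their order turned with the measure, since the base mean was 1064 for MVK and 725 for PMVK. MVK exons add up to 9018 bases, against 1002 for PMVK. Per kilobase of coding sequence the 2 kinases lay closer, at 896 for MVK and 1259 for PMVK. MVD, the decarboxylase, stood at 590 and IDI1, the isomerase, at 581.

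The 11 enzymes from squalene synthesis to cholesterol ranged from 53.6 to 1716 per kilobase, with a median of 718. FDFT1, squalene synthase, led with 1716. SQLE, squalene epoxidase and a rate-limiting step, followed with 1286, LSS, which closes the rings, with 930, and DHCR7, which carries out a last reduction, with 851. The other enzymes of this group lay lower. MSMO1 stood at 746, NSDHL at 718, TM7SF2 at 454 and EBP at 334. SC5D, HSD17B7 and CYP51A1 came last, with 107, 93.2 and 53.6 per kilobase of exons. The place of SC5D depended on the length used, since its exons add up to 10054 bases and its coding sequence to 897. Per kilobase of coding sequence it stood at 1195, above EBP at 856.

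Fatty acid enzymes were the highest of the 5 roles, with a median of 4166 per kilobase. SCD, which introduces the double bond of oleate, stood at 12408 per kilobase from a base mean of 65079. FASN, the fatty acid synthase, stood at 5988 from a base mean of 55819. Together SCD and FASN held 53.3% of the summed base mean of the 30 genes. ACLY, which provides cytosolic acetyl-CoA, stood at 2343. ACACA, which makes malonyl-CoA, was the lowest at 545, spread over 13022 bases of exons.

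Transport genes were the lowest role, with a median of 81.9 per kilobase. STARD4, a sterol carrier that SREBP-2 induces, stood at 393. The exporters ABCA1 and ABCG1 stood at 81.9 and 78.8, next to each other in the order, and 41.6% and 41.0% of protein-coding genes lay at or below them.

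**Figure D3:**
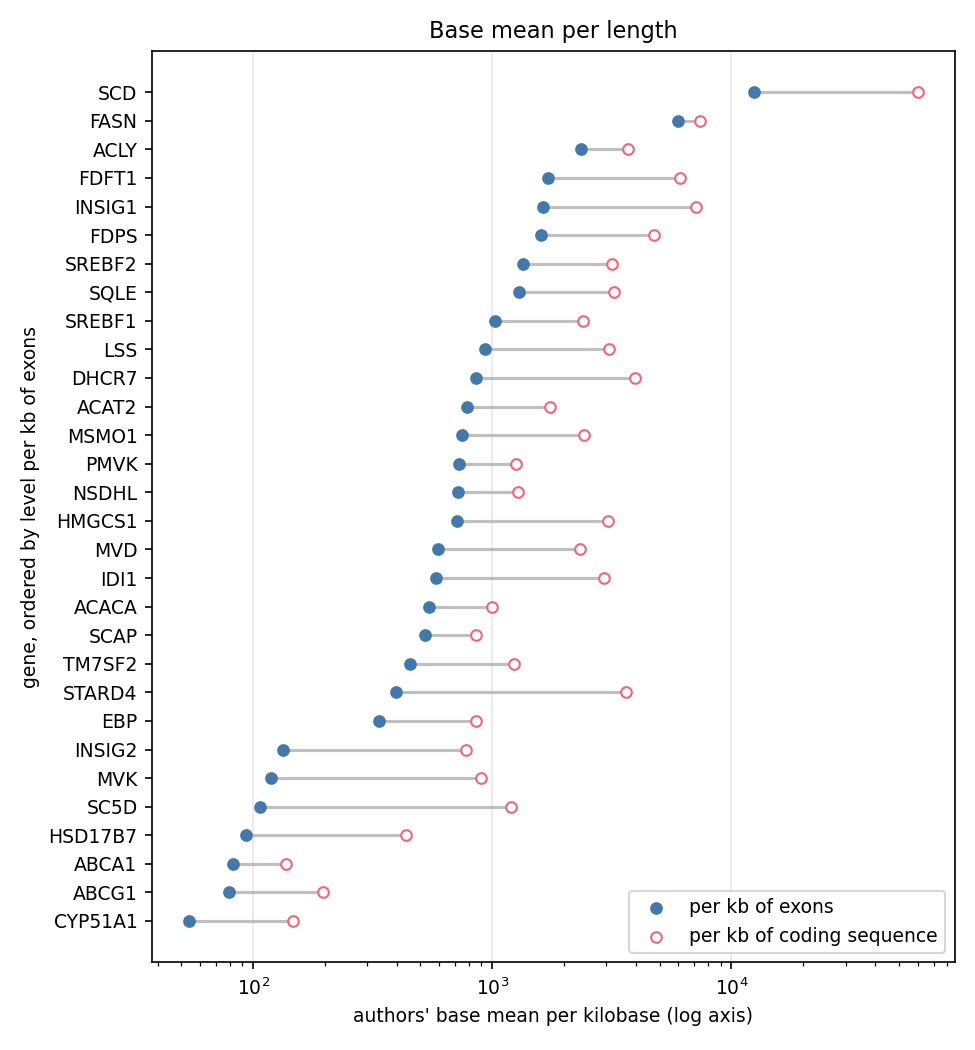
Base mean per kilobase of exons (filled) and per kilobase of the longest coding sequence (open) for each gene, on a log axis, ordered by the filled points. SCD and FASN lead on both measures, and CYP51A1, ABCG1 and ABCA1 fill the lowest places on the filled one.

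With the coding sequence as the length, values rose for every member and the order moved by a median of 2 places. SCD stayed first and FASN second. STARD4 moved from place 22 to place 8, since its coding sequence is 615 bases of 5684 bases of exons. The lowest place passed from CYP51A1 to ABCA1, at 137 per kilobase of coding sequence against 146 for CYP51A1.

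The level of CYP51A1, the lanosterol demethylase, is uncertain for another measured reason. Reads that fitted only 1 place in the genome were kept by the authors, and processed pseudogenes are near copies of a gene's mRNA. The tables list 3 pseudogenes under the name of CYP51A1 (ENSG00000001630). CYP51A1P1 on chromosome 3 stood at a base mean of 658, CYP51A1P2 on chromosome 13 at 541 and CYP51A1P3 on chromosome 6 at 5.36. Their sum of 1205 was 539% of the 224 listed for the gene. Gene and pseudogenes added up to 1428, which is 6.39 times the gene alone, and would put it at place 22 by base mean, where the gene alone is last. How many of these reads came from CYP51A1 mRNA was not tested.

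Among 1231 protein-coding genes with listed pseudogenes of their name, the pseudogenes exceeded the gene at 102 (8.29%), and their median was 7.03% of the gene. Besides CYP51A1, 4 members had such pseudogenes. FDPS had 7, which summed to 859 or 14.4% of its base mean, most of it from FDPSP1 at 459. HSD17B7 had 2, which summed to 19.1%, mainly from HSD17B7P2 at 79.0. HSD17B7P2 is labelled a transcribed unprocessed pseudogene, unlike the processed ones of CYP51A1. SCDP1 stood at 3214, a high value for a pseudogene but 4.94% of SCD, and IDI1P1 at 22.2 or 0.892% of IDI1.

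**Figure D4:**
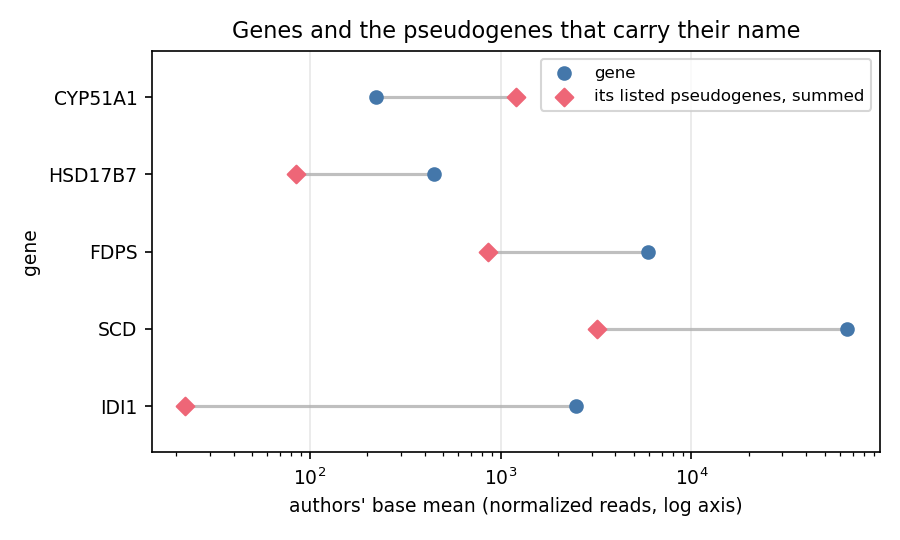
Base mean of the 5 genes with listed pseudogenes (circles) and of those pseudogenes summed (diamonds), on a log axis. The diamond lies to the right of the circle only at CYP51A1, with 1205 against 224.

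Members also share bases with genes on the other strand. The authors counted reads by strand, which keeps such pairs apart where the library marks strand. ACAT2, on chromosome 6, shares 454 bases of exons with TCP1, a chaperonin subunit, whose base mean was 6094 against 2076. CYP51A1 shares 108 bases with AKAP9, listed at 2112. SREBF1, on chromosome 17 from 17810399, shares 556 bases with RAI1, listed at 4675. MVK shares 225 bases with MMAB, listed at 924. Antisense RNAs named after members stood low, with 20.0 for SREBF2-AS1, 10.2 for STARD4-AS1 and 6.56 for CYP51A1-AS1. MIR33B, the precursor of a microRNA that lies in an SREBF1 intron and is known to target ABCA1, was listed at 3.001. On the same strand, TM7SF2 shares 18 bases of exons with VPS51 and EBP shares 644 with a gene listed at 2.94. The 30 members lie on 17 chromosomes, and the closest pair, PMVK and FDPS on chromosome 1, is 372028 bases apart.

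Other genes of sterol and fatty acid metabolism gave a scale for these levels. Of 24 further genes of synthesis, cleavage and transport, 23 were listed, with a median of 249 per kilobase of exons, against 716 for the 30 members. MBTPS1, the protease that makes the first cut in SREBPs, had a base mean of 8288, or 807 per kilobase. ACACB, the mitochondrial relative of ACACA, stood at 204, or 14.0 per kilobase against 545 for ACACA. CYP27A1, which makes an oxysterol, was the lowest at 32.8, or 11.0 per kilobase.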

How the data were processed

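RNA-seq was performed on 12 samples, grouped by cell line and treatment as in the labels. Libraries were depleted of ribosomal RNA per the labels, whereas the study's methods describe poly(A) selection. The authors trimmed reads, aligned them to hg38 with Ensembl annotation, kept uniquely mapped reads and assigned these to exons, strand by strand, using featureCounts (2.0.1 in the submitters' processing notes). The deposited signal is the base mean that the authors obtained with DESeq2 (1.32.0 in the same notes), a mean of size-factor-scaled reads. The other 5 numeric columns hold the authors' log2 fold change, its standard error, the test statistic and both p-values, and were not used. No treatment was therefore compared, depth is unknown, and intervals could not be given.

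Exon lengths (merged exons), the longest coding sequence, positions and overlaps came from GENCODE 44 on the same build. In it, 25836 of 25914 genes were found by identifier. The paper names an earlier annotation release, so the exons that the authors counted may differ from those measured here. Motifs were searched in RefSeq promoters by symbol, and the search was tested on simulated data. Pseudogenes were matched by the names in the tables. All 30 members were named, and of the further genes the 2 highest and 2 lowest by base mean, except for a gene that is not reported here. Members and lists were chosen with earlier results of these data known. Python 3.11.15, pandas 2.3.3 and matplotlib 3.10.9 were used. Alternatives changed the genes compared, the length, the motif, the window and, chosen after seeing the data, the unit counted.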

Additional observations from a re-analysis of the deposited data

How the results depend on the processing

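The median level of the members was 2360 per kilobase of coding sequence against 716 per kilobase of exons, which follows from dividing by a shorter length. By base mean, 30 members lay above the median of all listed genes and 25 above that of protein-coding genes, which is within the limit of 1.5 times. Counts of members with a motif do not depend on the background. They stayed within 1.5 times with the bases before the start only, the stricter sterol element and promoter entries in place of genes. The members' share with a CCAAT box was 67.6% over 34 promoter entries, against 76% over 25 genes. Among all promoter entries it was 34.6%. The background share rose from 48.3% to 74.2% for GC boxes and fell from 0.0256% to 0.00806% for the LXR repeat among genes listed with a base mean of at least 10. Which libraries the base mean averages is not given in the sources used here.

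No paired analysis was possible because the tables give no level for a single library. The planned test of Nutlin-3a against DMSO, its other normalization, tool and filter, the replicate block and leaving out a replicate were not run.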
